A study of Mus musculus with 56 samples.

Results

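The day-fed heart was followed through a whole day in 28 of the 56 heart libraries of the study, namely every library taken under daytime-restricted feeding (DRF). The libraries were chosen by the feeding regimen in the sample labels alone, with 4 replicates at each of 7 sampling points, every 4 h from ZT0 to ZT24 (ZT, zeitgeber time, counted in h from lights on). All mice were adult female C57BL/6J, an inbred laboratory strain, 9 weeks old, with no transgene or mutation named. They were first held for 7 days in a cycle of 12 h light and 12 h dark with free access to chow, and then for 7 days with food in the light phase only (DRF). The 28 remaining libraries came from mice of the same strain, sex and age whose food was given in the dark phase (nighttime-restricted feeding, NRF), the phase in which mice eat on their own, and they served as the reference. PolyA RNA of the heart was sequenced, so atria, ventricles and all cell types of the organ were measured together, and fewer cells of a type cannot be told apart from less RNA per cell.

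The circadian clock of a cell is a loop of transcription in which BMAL1 (Arntl) and CLOCK switch on their own repressors, the Per and Cry genes, while REV-ERB (Nr1d1, Nr1d2) and ROR proteins act on Arntl. Light sets the clock of the brain, whereas meals, hormones and body temperature can set the clocks of peripheral organs. The heart burns mostly fatty acids between meals and takes up more glucose after a meal, when insulin holds the FOXO transcription factors out of the nucleus. Day feeding places meals in the resting phase of a nocturnal animal, so feeding cues and light cues point to opposite times of day.

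Depth was 29.4 to 53.2 M (mega) recovered reads per DRF library (median 37.3 M), and 18.1 to 24.8% of the reads came from mitochondrially encoded genes. The labelled tissue was met by its markers, since the 6 cardiomyocyte markers (among them Myh6, Tnnt2 and Actc1) summed to between 17695 and 24765 TPM (reads per base of gene length, scaled to the same sum in each library) in every DRF library. Other cells varied more between hearts, and the 5 erythroid markers summed to 1863 to 66920.5 TPM, the 5 atrial markers to 94.5 to 5453 TPM, the 3 mesothelial markers to 4.49 to 197 TPM and the 4 white adipocyte markers to 1.69 to 65.4 TPM. None of the tested members of these 4 marker lists passed the rhythm test described below, and their part in other results was not tested. Among the remaining marker lists, 3 of 6 endothelial, 2 of 5 fibroblast, 3 of 6 macrophage, 2 of 6 cardiomyocyte, 1 of 5 smooth muscle and pericyte and 1 of 4 neutrophil and platelet markers passed it.

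The library labelled DRF ZT4 replicate 1 stood apart from its group. Over 1079 genes whose rhythm differed between the regimens, with the clock lists left out, its root mean square distance on the log2 scale was 0.165 to the mean of the NRF ZT8 libraries and 0.382 to the mean of its own group, which ranked ninth of 14 groups. The library labelled NRF ZT8 replicate 1 was in turn nearest to DRF ZT4 (0.171, against 0.355 to its own group). Of the other 27 DRF libraries, 26 were nearest to their own group, and DRF ZT24 replicate 1 was nearest to DRF ZT0. The labels were kept as given. The main counts, the leading genes of each window and some lists are therefore also stated without DRF ZT4 replicate 1, an alternative chosen after the data were seen. Where the regimens were set against each other, some results are also stated without both libraries. Other values and list counts include them. DRF ZT4 replicate 1 lay outside the range of the other ZT4 libraries for 133 of 173 named genes. Without it 10 named genes no longer passed the rhythm test.

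A 24 h rhythm was found in 4496 of 13878 tested genes (32.4%) by fitting a cosine and a sine of that period to log2(TPM + 1) and testing both terms together with limma, at a Benjamini-Hochberg adjusted p under 0.05. Without DRF ZT4 replicate 1 the count was 4163, and 4031 genes were called both times. Most of these rhythms were shallow. The median fitted amplitude (the height of the wave above its mean, on the log2 scale) was 0.16 among the called genes, or a peak 1.26 times the trough, and 117 genes had a peak at least 2 times the trough. The peak time had a median standard error of 0.897 h, and 2035 of the called genes (45.3%) lay within 1 standard error of the edge of a 4 h window. A test of any difference among the 7 sampling times, with no wave shape assumed, called 4371 genes (31.5%), of which 3331 also passed the 24 h test. The median absolute difference from ZT0 over the tested genes was 0.10 at ZT4, 0.14 at ZT16 and 0.09 at ZT24 on the log2 scale, lowest at the time that closes the cycle.

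Peaks were counted in 6 windows of 4 h centred on the sampling times. In TPM, 779 called genes peaked between ZT22 and ZT2, 1517 between ZT2 and ZT6, 1291 between ZT6 and ZT10, 278 between ZT10 and ZT14, 195 between ZT14 and ZT18 and 436 between ZT18 and ZT22. The windows around ZT4 and ZT8, when food was present, thus held 62.5% of the called genes. This share depended on the scaling of the libraries. After median-of-ratios scaling, which sets the typical gene rather than the sum equal among libraries, the same test called 4570 genes (3624 of them shared), the 6 windows held 672, 712, 999, 584, 639 and 964 genes, and the windows around ZT4 and ZT8 held 37.4%. The log2 size factor that separates the 2 scalings averaged -0.11 at ZT16 and -0.07 at ZT20 and was near 0 at the other times. Mitochondrially encoded genes took a mean of 21.53% of the reads at ZT16 and 23.3% at ZT20, against 20.98% to 21.81% at the other times. In TPM without these genes 3947 genes were called, with 1109 around ZT4 and 996 around ZT8. What set the size factors was not tested. The genes whose peak was at least 2 times the trough were spread more evenly, with 22, 16, 22, 17, 17 and 23 in the 6 windows in TPM and 22, 12, 14, 17, 22 and 27 after median-of-ratios scaling.

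**Figure D1:**
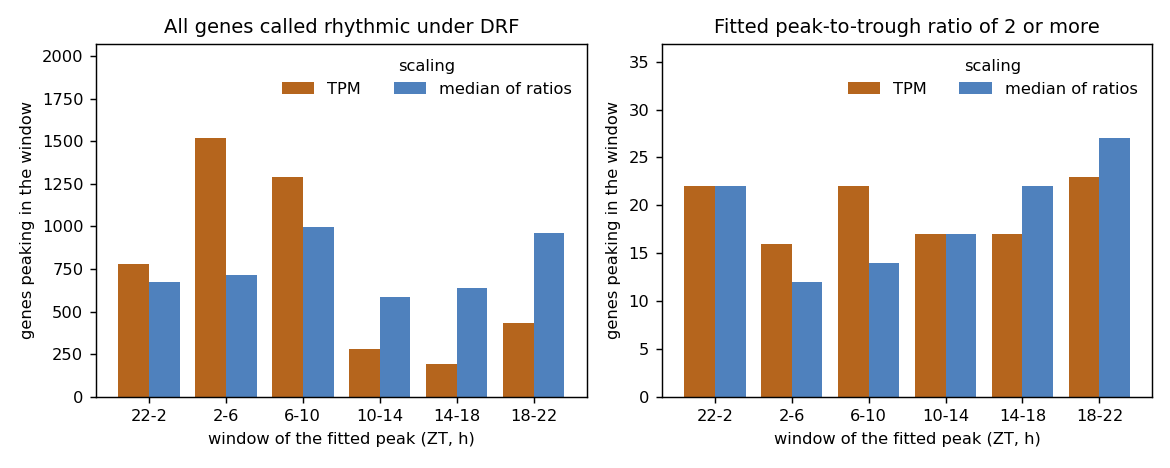
Number of genes called rhythmic under DRF by the window of the fitted peak (x axis, ZT in h; y axis, genes), for all called genes (left) and for genes whose fitted peak was at least 2 times the trough (right). Brown bars are TPM and blue bars are median-of-ratios scaling; on the left the tallest brown bar is 1517 genes at ZT2 to ZT6 against 712 in blue, and on the right no bar exceeds 27 genes.

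The genes of largest amplitude in each window, 5 per window among protein-coding genes that averaged 5 TPM or more, are described first by window and then with the function lists to which they belong. The lists and their members were chosen with earlier results of these data known. A list share above that of all tested genes is therefore a description and not a test. All 30 leading genes kept their call under both scalings and without DRF ZT4 replicate 1. Their peak moved by at most 0.317 h with the scaling and 0.452 h without that library, and 2 of the 30 crossed a window edge in each case. These were Scd4 and Rasl11a with the scaling, and Scd4 and Cyp1a1 without the library. The library labelled DRF ZT4 replicate 1 was outside the range of the other 3 ZT4 libraries for 24 of the 30. Since these genes were chosen by amplitude in the same libraries, and values are mostly shown near peak and trough, groups without overlap describe them and add no support.

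**Figure D2:**
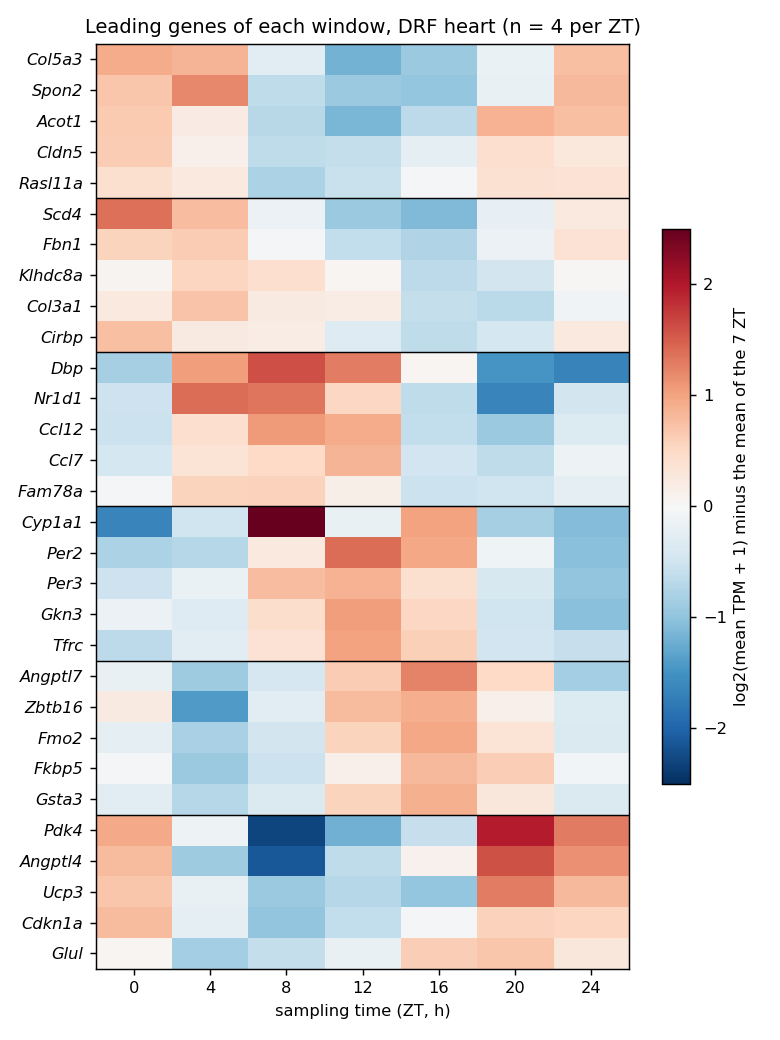
Heat map of the 30 leading genes (rows, 5 for each of the 6 peak windows from ZT0 at the top to ZT20 at the bottom) over the 7 sampling times (x axis, ZT in h) in the DRF heart. Colour is log2(mean TPM + 1 of 4 libraries) minus the mean of the 7 times, red above and blue below it; the red block moves from the left and right edges at the top (Col5a3, mean 19.3 TPM at ZT0 and 3.75 TPM at ZT12) to ZT20 at the bottom (Pdk4, mean 1283 TPM).

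Most clock genes were rhythmic. Of the activators 3 of 3 passed the test, of the repressors and ROR receptors 10 of 12, and of the output factors 4 of 4, against 32.4% of all tested genes. Arntl had an amplitude of 1.01 ± 0.08 and a peak at ZT23.1 ± 0.33 h (limma adjusted p = 8.7e-10), and its partner Npas2 peaked at ZT0.571 ± 0.27 h (amplitude 0.92 ± 0.06). The repressors followed in a row of peak times, Nr1d1 at ZT7.37 ± 0.24 h, Nr1d2 at ZT10.3 ± 0.40 h, Per3 at ZT11.3 ± 0.37 h, Per2 at ZT13.3 ± 0.31 h and Cry1 at ZT16.2 ± 0.37 h. Per1 (limma adjusted p = 0.47) and Cry2 (limma adjusted p = 0.057) did not pass, but Cry2 did after median-of-ratios scaling and without DRF ZT4 replicate 1. Among the output factors, which carry the phase of the clock to other genes, Dbp peaked at ZT9.19 ± 0.37 h, Hlf at ZT10.8 ± 0.31 h and Tef at ZT11.6 ± 0.39 h, while Nfil3, a repressor that binds the same D-box site, peaked in the dark phase at ZT18.8 ± 0.78 h. The fitted amplitude was below that under NRF in 18 of the 19 clock genes, among them Arntl (NRF 1.71), Nr1d1 (1.53 against 2.06), Per2 (1.17 against 1.80) and Per1 (0.22 against 1.27). The peaks of Arntl and Nr1d1 lay 1.71 h and 0.779 h before those under NRF, at ZT0.859 and ZT8.15, and the test of the rhythm difference, which takes amplitude and phase together, called both (limma adjusted p = 3.2e-07 and 0.0029; without both doubted libraries, 7.2e-10 and 1.7e-05).

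Nr1d1 and Dbp carried the largest amplitudes of the ZT8 window. Nr1d1 (chr11:98767932-98775333, minus strand, build mm10), the gene of the repressor REV-ERB alpha, stood at 89.04, 81.5, 79.3 and 75.8 TPM in the 4 ZT8 libraries and at 8.75, 12.6, 6.89 and 9.21 TPM at ZT20, and the 2 groups did not overlap. At ZT4, replicate 1 read 139.6 TPM and the other 3 libraries 82.5, 58.97 and 55.4 TPM. Dbp (chr7:45705088-45710203, plus strand), a PAR bZIP activator, stood at 76.5, 67.02, 77.8 and 77.9 TPM at ZT8 and 5.45, 5.01, 11.9 and 4.64 TPM at ZT24, a fitted peak 10.8 times its trough (amplitude 1.72 ± 0.17, limma adjusted p = 7.2e-08). The library labelled DRF ZT4 replicate 1 had 118 TPM of Dbp, above every other DRF library, against 37.5, 26 and 17.6 TPM in the other ZT4 libraries and 116, 149 and 157 TPM in NRF ZT8 replicates 2 to 4. Without it the amplitude of Dbp was 1.66 and the peak at ZT9.52.

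Promoters of 5 of the genes described here are printed because they hold short sites that clock or FOXO proteins are known to bind. The windows run from 250 bases before the start of the gene to 50 after it (RefSeq, GRCm38.p6, 5′ to 3′ on the strand of the gene), and capitals mark the motif found there. The motifs searched on both strands were the E-box CACGTG of BMAL1 and CLOCK, the D-box TTATGTAA or TTACGTAA of DBP, TEF, HLF and NFIL3, the FOXO site GTAAACA, the RORE TAGGTCA of REV-ERB and ROR proteins, the CRE TGACGTCA of CREB and the CARE TGATGCAA of ATF4. Ciart, a clock repressor (amplitude 0.60, peak ZT9.18), held 3 E-boxes, Tef held 1, Per3 held 2 D-boxes, Gkn3, of the gastrokine family, held 1 D-box read on the other strand, and Txnip held 1 FOXO site.
Ciart, chr3:95882179-95882478, minus strand: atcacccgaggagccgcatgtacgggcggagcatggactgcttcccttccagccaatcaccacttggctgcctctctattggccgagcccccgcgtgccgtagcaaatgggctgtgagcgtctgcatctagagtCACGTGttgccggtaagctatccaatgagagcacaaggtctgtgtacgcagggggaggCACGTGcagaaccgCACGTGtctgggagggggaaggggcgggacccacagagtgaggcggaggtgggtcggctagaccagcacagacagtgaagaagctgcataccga
Tef, chr15:81802423-81802722, plus strand: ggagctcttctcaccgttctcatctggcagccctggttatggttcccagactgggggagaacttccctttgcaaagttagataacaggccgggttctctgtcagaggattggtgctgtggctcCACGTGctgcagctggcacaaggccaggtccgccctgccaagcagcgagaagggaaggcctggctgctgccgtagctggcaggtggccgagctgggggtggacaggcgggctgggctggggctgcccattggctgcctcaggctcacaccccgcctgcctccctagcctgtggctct
Per3, chr4:151044616-151044915, minus strand: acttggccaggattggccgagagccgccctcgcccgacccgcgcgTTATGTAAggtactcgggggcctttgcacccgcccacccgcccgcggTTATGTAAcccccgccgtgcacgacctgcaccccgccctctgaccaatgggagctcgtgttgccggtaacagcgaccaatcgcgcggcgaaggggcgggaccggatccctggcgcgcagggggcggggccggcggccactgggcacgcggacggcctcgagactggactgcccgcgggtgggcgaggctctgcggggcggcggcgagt
Gkn3, chr6:87388886-87389185, minus strand: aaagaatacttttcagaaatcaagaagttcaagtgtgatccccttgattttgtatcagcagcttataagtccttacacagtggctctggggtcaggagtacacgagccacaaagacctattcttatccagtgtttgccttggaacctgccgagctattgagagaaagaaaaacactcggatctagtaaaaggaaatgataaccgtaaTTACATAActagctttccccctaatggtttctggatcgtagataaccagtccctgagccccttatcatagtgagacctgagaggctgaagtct
Txnip, chr3:96557707-96558006, plus strand: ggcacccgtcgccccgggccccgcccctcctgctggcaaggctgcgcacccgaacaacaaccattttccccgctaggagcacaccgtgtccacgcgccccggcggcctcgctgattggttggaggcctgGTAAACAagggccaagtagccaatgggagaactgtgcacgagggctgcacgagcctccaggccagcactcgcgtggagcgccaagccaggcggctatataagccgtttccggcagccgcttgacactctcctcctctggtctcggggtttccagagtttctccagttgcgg
Such a window was at hand for 9510 protein-coding genes that were tested, and 10.2% of them held the E-box, 0.62% the D-box, 2.47% the FOXO site, 1.83% the RORE, 3.11% the CRE and 0.61% the CARE. Among the 181 windows of genes that peaked between ZT10 and ZT14, 7 (3.87%) held the D-box, those of Coq10b, Ak4, Per3, Gkn3, Smim10l1, Homer2 and Cgas. Among the 326 windows of genes that peaked between ZT18 and ZT22, 20 (6.13%) held the FOXO site and 46 (14.1%) the E-box. In the other windows the FOXO site was held by 1.68% to 3.99% and the E-box by 9.19% to 11.9%, including 11.9% around ZT8 and 11.6% around ZT12. Among the 6 windows the CARE had its highest share around ZT16, with 4 of 129 (3.10%). A match to the letters is a description and does not show that a protein was bound.

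Around ZT0, the end of the night in which the day-fed mice had no food, most of the called fatty acid oxidation genes and a few genes of the vessel wall and matrix were at their peak. Acot1 (chr12:84009490-84018371, plus strand), a cytosolic thioesterase that frees fatty acids from coenzyme A, stood at 32.5, 27.1, 18.5 and 35.2 TPM at ZT0 and 5.85, 9.05, 8.28 and 6.53 TPM at ZT12 with no overlap (peak ZT23.2 ± 0.36 h, amplitude 0.99 ± 0.08, limma adjusted p = 4.8e-09). Col5a3 (chr9:20770050-20815067, minus strand), a chain of type V collagen, fell from 15.8, 21.2, 20.2 and 19.97 TPM at ZT0 to 3.35, 3.92, 2.68 and 5.04 TPM at ZT12, a fitted peak 4.60 times its trough (limma adjusted p = 3.2e-13). Cldn5, the tight junction protein of endothelium, was at 111, 116, 152 and 111 TPM at ZT0 and 55.5, 57.7, 38.4 and 50.03 TPM at ZT8, and the groups did not overlap. Its fitted peak lay at ZT22.7 ± 0.50 h (limma adjusted p = 1.9e-06). The 6 endothelial markers summed to a mean of 643 TPM at ZT0 and 557 TPM at ZT8, a smaller ratio than that of Cldn5. The 3 called among them, Kdr, Tek and Tie1, peaked at ZT0.662, ZT0.833 and ZT1.76, in the same window as Cldn5, and their part in its values was not tested. The matrix protein gene Spon2 (amplitude 1.08 ± 0.14, peak ZT1.60 ± 0.53 h) and the small GTPase gene Rasl11a (amplitude 0.60 ± 0.08, peak ZT22.2 ± 0.52 h) completed this window.

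The fatty acid oxidation list had 20 of 29 tested members called (69.0%, against 32.4% of all genes), of which 14 peaked around ZT0, 4 around ZT4 and 2 around ZT20. After median-of-ratios scaling 11 members were called (37.9%, against 32.9% of all genes), 8 around ZT0 and 3 around ZT20, and 11 also differed among the 7 time points in TPM (against 31.5% of all genes). Without DRF ZT4 replicate 1, 18 were called. The steep members were Ucp3 (amplitude 1.07, ZT21.8), a carrier of the inner mitochondrial membrane, Acot1, the peroxisomal enzyme gene Ehhadh (0.64, ZT21.6, limma adjusted p = 9.0e-05) and the mitochondrial thioesterase gene Acot2 (0.56, ZT0.336, limma adjusted p = 1.8e-07). Of lipolysis and lipoprotein lipase genes 6 of 14 were called (42.9%, against 32.4%), 4 around ZT0 and 2 around ZT20. Among the 7 time points 11 of the 14 differed (78.6%, against 31.5%). After median-of-ratios scaling 10 were called (71.4%, against 32.9%), 2 around ZT0, 7 around ZT20 and 1 around ZT16. They were led by Angptl4, Plin4 (0.49, ZT19.9), a lipid droplet coat gene, Lipe (0.46, ZT22.1), hormone-sensitive lipase, and Plin5 (0.38, ZT23.3). Of the 6 ketone body genes tested, 2 were called (33.3%, near the 32.4% of all genes).

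Pdk4, in the ZT20 window, had the largest amplitude of the 30 leading genes. It lies at chr6:5483351-5496309, minus strand, and encodes the kinase that shuts pyruvate dehydrogenase and so keeps glucose carbon out of the citric acid cycle. Its mRNA stood at 1445, 1593, 1134 and 958 TPM in the ZT20 libraries and at 55.2, 92.7, 59.8 and 54.7 TPM in the ZT8 libraries. Every ZT20 value was more than 10 times every ZT8 value. The fitted peak at ZT21.5 ± 0.35 h was 13.1 times the trough (amplitude 1.85 ± 0.16, limma adjusted p = 1.4e-08). Under NRF its amplitude was 1.33 and its peak at ZT5.15, 7.69 h away (limma adjusted p of the rhythm difference = 2.8e-10; without both doubted libraries, 1.2e-10). Of the other genes that control pyruvate dehydrogenase, the kinase genes Pdk1, Pdk2 and Pdk3 and the phosphatase gene Pdp2 did not pass, and Pdp1 passed at an amplitude of 0.17. Angptl4, a secreted inhibitor of lipoprotein lipase, had 40.7, 54.4, 26.03 and 16.6 TPM at ZT20 and 1.35, 2.86, 1.54 and 1.08 TPM at ZT8 (peak ZT20.2 ± 0.45 h, amplitude 1.70 ± 0.21). Ucp3 stood at 122, 86.9, 96.1 and 85.8 TPM at ZT20 and 24.5, 20.8, 15.8 and 18.6 TPM at ZT16, while at ZT4, replicate 1 read 99.2 TPM and the other 3 read 18.2, 14.4 and 8.58 TPM. NRF ZT8 replicates 2 to 4 read 102, 59.4 and 87.5 TPM of Ucp3.

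Cdkn1a, the cell cycle inhibitor p21, and Glul, glutamine synthetase, were the other leading genes of the ZT20 window. Cdkn1a averaged 36.97 ± 10.2 TPM at ZT20 and 11.8 ± 1.81 TPM at ZT8 (SD, n = 4 each), with the fitted peak at ZT21.7 ± 0.40 h. Glul averaged 423 ± 63.8 TPM at ZT20 and 144 ± 41.7 TPM at ZT4 (SD, n = 4 each), with the peak at ZT18.5 ± 0.28 h (limma adjusted p = 4.8e-09). Most genes of the insulin and FOXO response were rhythmic, with peaks mainly in the dark phase. Of 21 tested, 18 were called (85.7%, against 32.4%), 9 around ZT20, 4 around ZT16, 4 around ZT0 and 1 around ZT4, although the highest mean TPM was at ZT16 in 8 of them and at ZT20 in 2, and 18 were called without DRF ZT4 replicate 1. Beside Cdkn1a, the largest amplitudes were those of Txnip (0.62, ZT18.9, limma adjusted p = 0.0027), which limits glucose uptake, Irs2 (0.41, ZT18.6), an adaptor of the insulin receptor, and Sesn1 (0.40, ZT16.3), a sestrin. Bcl6, Ddit4 and Deptor did not pass. Autophagy and lysosome genes were called in 10 of 28 cases (35.7%, against 32.4%) and in 12 after median-of-ratios scaling (42.9%, against 32.9%), with 4 each in TPM around ZT20 and ZT0. Among them were the cargo receptor gene Sqstm1 (0.35, ZT23.3) and the mitophagy receptor gene Bnip3 (0.28, ZT21.5).

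Zbtb16 and Fkbp5, both known to answer to glucocorticoids, were leading genes of the early night around ZT16. Zbtb16 (chr9:48654297-48836222, minus strand), a zinc finger factor, stood at 58.3, 32.7, 34.9 and 32.4 TPM at ZT16 and 13.9, 3.29, 4.63 and 6.30 TPM at ZT4 (amplitude 1.01 ± 0.18, peak ZT16.1 ± 0.62 h, limma adjusted p = 3.4e-04). Fkbp5, a cochaperone that restrains the glucocorticoid receptor, stood at 20.6, 15.5, 7.96 and 10.1 TPM at ZT16 and 4.45, 3.07, 2.76 and 3.10 TPM at ZT4, and its groups did not overlap. Of the glucocorticoid response list, 8 of 15 tested members were called (53.3%, against 32.4%), 4 around ZT16 and 4 around ZT20, and the count was 8 under median-of-ratios scaling and 8 without DRF ZT4 replicate 1. Of the 8 in TPM, 4 had their highest mean at ZT16 and 1 each at ZT20, ZT24, ZT0 and ZT12. The metallothionein genes Mt2 (1.00, ZT20.9, limma adjusted p = 2.8e-06) and Mt1 (0.67, ZT20.4, limma adjusted p = 4.8e-10), which bind zinc and copper, were among the later members. Nr3c1, the receptor itself, Sgk1 and Klf9 did not pass. Hormone levels were not measured in these files.

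The remaining leading genes around ZT16 were Angptl7, a secreted angiopoietin-like protein, and the detoxifying enzyme genes Fmo2 and Gsta3. Gsta3 stood at 17.2, 20.98, 21.9 and 23.9 TPM at ZT16 and 3.83, 8.87, 5.44 and 7.02 TPM at ZT4, and the groups did not overlap (peak ZT15.8 ± 0.29 h, limma adjusted p = 2.1e-09). Angptl7 averaged 50.5 ± 5.65 TPM at ZT16 and 10.9 ± 3.99 TPM at ZT4 (SD, n = 4 each), and Fmo2 averaged 68.5 ± 1.03 and 19.2 ± 9.94 TPM at the same times. Of 15 tested NRF2 targets, 9 were called (60%, against 32.4%), 6 of them around ZT4 in TPM but 2 around ZT4 and 3 around ZT0 of 9 after median-of-ratios scaling. They included Nqo1 (0.28, ZT4.59) and Cat (0.23, ZT2.15), the catalase gene, and Gclm, a subunit of the enzyme that starts glutathione synthesis, at ZT0.0563.

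**Figure D3:**
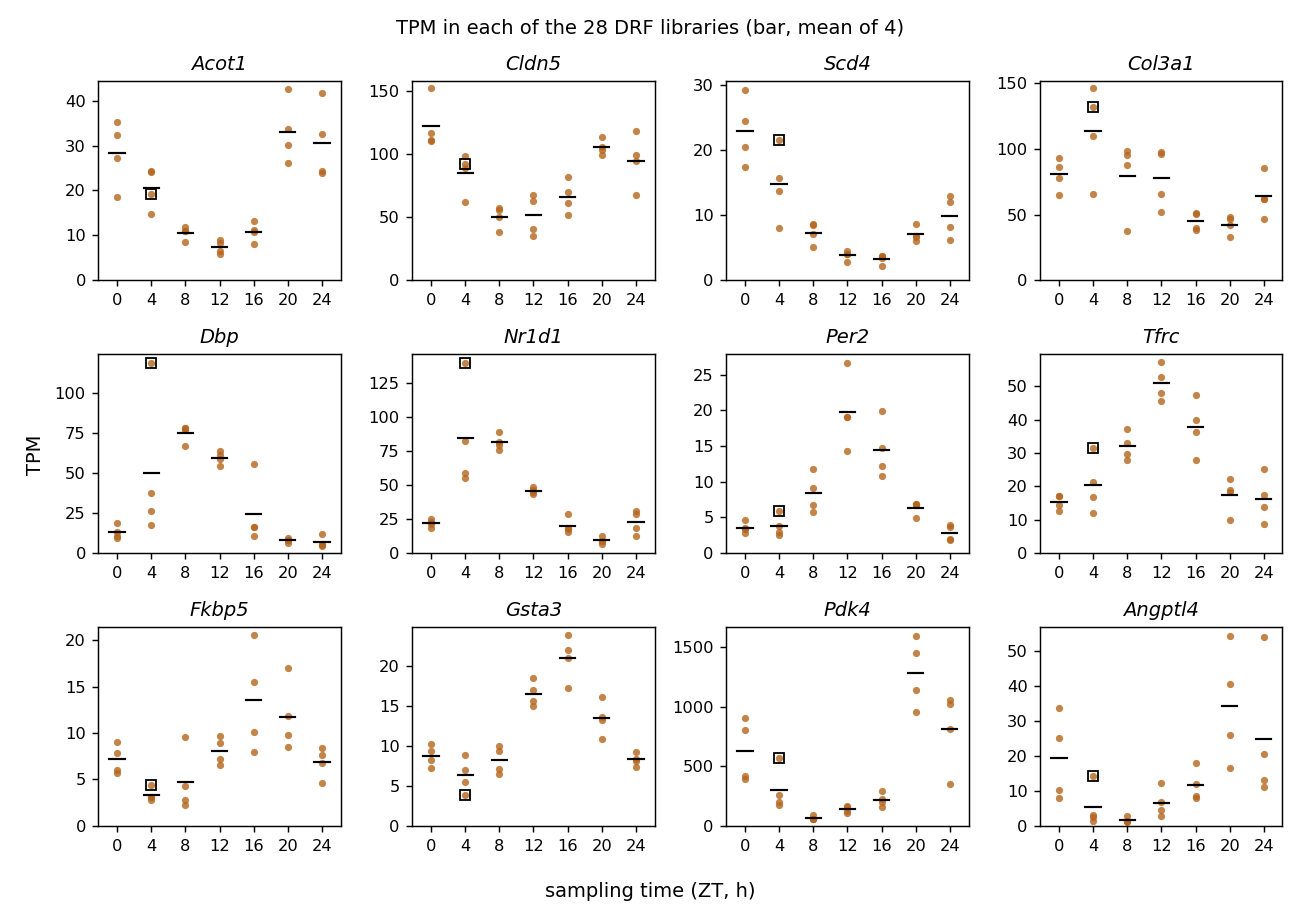
TPM (y axis, linear from 0) of 12 genes in each of the 28 DRF libraries against sampling time (x axis, ZT in h). Points are libraries, bars the mean of 4, and the open square is the library labelled DRF ZT4 replicate 1; Pdk4 rises from 65.6 TPM on average at ZT8 to 1283 TPM at ZT20, while the square for Dbp, at 118 TPM, lies above every other library.

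Around ZT4, early in the light phase in which food was given, lay the fitted peaks of most called matrix genes. Collagen and matrix genes were called in 18 of 26 cases (69.2%, against 32.4%), 11 of them around ZT4, and in 18 after median-of-ratios scaling. Col3a1 (chr1:45311538-45349706, plus strand), the chain of type III collagen, stood at 132, 146, 109.6 and 66.05 TPM at ZT4 and 41.96, 47.9, 33.3 and 46.6 TPM at ZT20 (peak ZT5.64 ± 0.65 h, limma adjusted p = 9.4e-04). The groups did not overlap, and the lowest ZT4 value was that of replicate 4. Col15a1 (amplitude 0.51, ZT5.47) and Col1a1 (0.51, ZT5.25) peaked near the same time, and Fbn1, the fibrillin of elastic fibres, peaked at ZT2.40 ± 0.38 h with an amplitude of 0.71 ± 0.07. The fibroblast marker sum, of which Col1a1 is a member, averaged 582 TPM at ZT4, 644 TPM at ZT12, where it was highest, and 512 TPM at ZT20, and its part in these values was not tested. Of the other fibroblast markers Lum was called, with a peak at ZT10.9, and Dcn, Pdgfra and Tcf21 did not pass. A difference in rhythm between the regimens was called for 2 of the 26 matrix genes, against 27.6% of all tested genes.

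Scd4, the heart isoform of stearoyl-CoA desaturase, was the steepest gene of the ZT4 window in TPM with all libraries. After median-of-ratios scaling (ZT1.98) and without DRF ZT4 replicate 1 (ZT1.97) Scd4 peaked in the ZT0 window. It stood at 24.4, 20.4, 17.3 and 29.2 TPM at ZT0, 21.6, 15.6, 7.97 and 13.7 TPM at ZT4 and 3.73, 3.42, 2.19 and 3.70 TPM at ZT16, with the fitted peak at ZT2.08 ± 0.45 h on the early edge of the window (amplitude 1.03 ± 0.11, limma adjusted p = 6.4e-07). Cirbp, an RNA-binding protein induced by mild cold, was highest at ZT0 with 80.4, 65.4, 62.5 and 55.1 TPM and lowest at ZT16 with 36.4, 22, 17.2 and 22.6 TPM, and these groups did not overlap (peak ZT3.33 ± 0.58 h). Klhdc8a, a kelch-domain gene, peaked at ZT5.67 ± 0.28 h (amplitude 0.60 ± 0.05). Of 24 tested ion channel genes 12 were called (50%, against 32.4%), 5 around ZT4 and 5 around ZT8, and 11 after median-of-ratios scaling. The potassium channel genes Kcnj5 (0.44, ZT6.30, limma adjusted p = 2.8e-07) and Kcnh2 (0.42, ZT5.48, limma adjusted p = 1.9e-05) and the sodium channel genes Scn4a (0.54, ZT2.70) and Scn4b (0.34, ZT3.30) had the largest amplitudes. Kcnip2, Kcnd2 and Kcna5 did not pass. Sarcomere genes were called in 6 of 24 cases and calcium handling genes in 5 of 17. These were 25% and 29.4%, against 32.4%, with 3 and 6 called after median-of-ratios scaling (12.5% and 35.3%, against 32.9%) and 10 and 7 differing among the 7 time points (41.7% and 41.2%, against 31.5%). Without DRF ZT4 replicate 1 the counts of called genes were 6 and 3. Tcap, a Z-disc protein, led the sarcomere list (0.41, ZT6.31, limma adjusted p = 0.012). Of adrenergic signaling genes 9 of 20 were called (45%, against 32.4%), 2 around ZT20, 2 around ZT0, 3 around ZT4 and 2 around ZT8, among them the alpha-1 receptor genes Adra1a at ZT20.4 and Adra1b at ZT2.88 and the receptor kinase gene Grk5 at ZT23.6.

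Called genes of cholesterol synthesis peaked in the light phase under both scalings. Cholesterol synthesis and uptake genes were called in 13 of 20 cases (65%, against 32.4%), 6 around ZT4 and 7 around ZT8, with 3 and 7 after median-of-ratios scaling. The enzyme genes Hsd17b7 (0.34, ZT2.56), Sqle (0.24, ZT6.51) and Idi1 (0.24, ZT6.88) were among the called members. Ribosome biogenesis genes were called in 17 of 34 cases (50%, against 32.4%), 9 around ZT4 and 6 around ZT8, but after median-of-ratios scaling in 9 (26.5%, against 32.9%), 2 around ZT4 and 5 around ZT8. They were led by Polr1a (0.27, ZT4.07), the large subunit of RNA polymerase I, and Bysl (0.24, ZT5.74). Splicing factor genes were called in 16 of 40 cases, translation initiation factors in 17 of 52, aminoacyl-tRNA synthetases in 6 of 20 and proteasome subunits in 13 of 38, shares of 40%, 32.7%, 30% and 34.2% against 32.4%. Of the splicing factor genes 18 were called after median-of-ratios scaling (45%, against 32.9%), and 21 differed among the 7 time points (52.5%, against 31.5%). After median-of-ratios scaling 10 of 19 called translation initiation factors peaked around ZT16 or ZT20, against 3 of 17 in TPM. Of the called proteasome genes 10 peaked around ZT8 in TPM and 6 of 12 after median-of-ratios scaling, although 1 of the 13 had its highest mean TPM at ZT8 and 6 at ZT12, and the largest amplitudes were those of the immunoproteasome genes Psmb8 (0.26, ZT6.80) and Psmb10 (0.22, ZT7.91).

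Around ZT8, late in the light phase, lay the fitted 24 h peaks of most called genes of the endoplasmic reticulum, although 13 of the 18 had their highest mean TPM at ZT4 and 2 at ZT8. Of chaperones and unfolded protein response genes 18 of 24 were called (75.0%, against 32.4%), 14 around ZT8, with 14 members called after median-of-ratios scaling, 8 of them around ZT8, and 17 without DRF ZT4 replicate 1. Manf, a secreted stress protein, averaged 28.7 ± 2.55 TPM at ZT8 and 15.8 ± 2.57 TPM at ZT20 (SD, n = 4 each; amplitude 0.52, ZT8.06, limma adjusted p = 0.0023). At ZT4 it stood at 19.6, 51.5, 36.9 and 58.2 TPM, and replicate 1 lay below every ZT8 library and the other 3 above every ZT8 library. Hyou1 (0.36, ZT7.49), a chaperone of the lumen, had its fitted peak near the same time and stood at 14.1, 27.8, 23.1 and 32.1 TPM at ZT4 and 21.4, 21.2, 17.6 and 16.5 TPM at ZT8. Replicates 2 to 4 at ZT4 lay above every ZT8 library. Herpud1 (0.54, ZT17.2), which helps to clear misfolded proteins, peaked in the night. Protein secretion and vesicle coat genes were called in 23 of 31 cases (74.2%), 19 around ZT8, and in 21 both after median-of-ratios scaling, 14 of them around ZT8, and without DRF ZT4 replicate 1. Of the 23, 12 had their highest mean TPM at ZT4, 4 at ZT8 and 6 at ZT12. They included the coat gene Sec24d (0.30, ZT5.21, limma adjusted p = 7.7e-06) and the translocon gene Sec61b (0.29, ZT7.28, limma adjusted p = 0.0053). Mitochondrial ribosomal protein genes were called in 15 of 77 cases (19.5%), fewer than the background share, 13 of them around ZT8 in TPM and 5 around ZT8 and 7 around ZT12 of 14 after median-of-ratios scaling. Of the 15, 3 had their highest mean TPM at ZT8, 5 at ZT4, 4 at ZT12, 2 at ZT0 and 1 at ZT24.

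Ccl12 and Ccl7, genes of chemokines that attract monocytes, were also among the 5 leading genes of the ZT8 window. Ccl12 stood at 13.1, 14.1, 14.1 and 16.4 TPM at ZT8 and 1.82, 5.27, 1.02 and 3.21 TPM at ZT20 (amplitude 1.12 ± 0.12, peak ZT8.37 ± 0.39 h, limma adjusted p = 2.9e-07), and Ccl7 had an amplitude of 0.71 ± 0.11 and a peak at ZT8.49 ± 0.59 h. The macrophage marker sum, most of it Lyz2, had means between 609 TPM at ZT8 and 723 TPM at ZT0, while the called markers Cd68, Mrc1 and Cd163 peaked at ZT10.4, ZT11.0 and ZT17.7, and their part in the chemokine values was not tested. Fam78a (amplitude 0.64 ± 0.06, peak ZT6.64 ± 0.32 h) was the fifth leading gene. Of interferon response genes 2 of 19 were called (10.5%, against 32.4%), while 9 differed among the 7 time points (47.4%, against 31.5%).

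Around ZT12, when the light phase ended, Tfrc and several clock genes were at their peak. Tfrc (chr16:32608920-32632794, plus strand), the transferrin receptor, stood at 52.6, 45.6, 48.02 and 57.2 TPM at ZT12 and 12.7, 14.4, 17.2 and 17.2 TPM at ZT0, with no overlap (peak ZT12.03 ± 0.48 h, amplitude 0.83 ± 0.09, limma adjusted p = 6.4e-07). Under NRF it peaked at ZT1.10, 10.9 h away (limma adjusted p of the rhythm difference = 8.0e-13; without both doubted libraries, 4.4e-13). Among the 15 tested iron and heme genes 6 were called (40%, against 32.4%), 2 of them around ZT12, and Slc40a1, the iron exporter ferroportin, had its peak at ZT0.129 ± 0.35 h, opposite to that of Tfrc. Fatty acid and triglyceride synthesis genes were called in 11 of 19 cases (57.9%) at spread times, with the elongase gene Elovl6 at ZT12.6 (amplitude 0.59, limma adjusted p = 0.013), the desaturase gene Scd2 at ZT8.75 and Gpam, which starts triglyceride synthesis, at ZT23.1. Fasn and Srebf1 did not pass.

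Per2 stood at 19.1, 19.01, 14.4 and 26.7 TPM at ZT12 and 1.77, 3.90, 3.69 and 1.94 TPM at ZT24, and Per3 and Gkn3 averaged 10.5 ± 2.09 and 11.7 ± 4.39 TPM at ZT12 (SD, n = 4 each). Cyp1a1, a xenobiotic-metabolizing enzyme induced through the aryl hydrocarbon receptor, was assigned to this window by its fitted peak at ZT10.1 ± 0.82 h (amplitude 1.51 ± 0.30, limma adjusted p = 0.0014). Its values were nevertheless highest at ZT8, at 48.6, 38.7, 123 and 35.1 TPM, and at ZT12 they were 3.50, 2.89, 5.14 and 7.71 TPM. The highest ZT8 library was thus far above the other 3. Heat shock chaperone genes were called in 8 of 24 cases, near the background share of 32.4% (41.7% against 32.9% after median-of-ratios scaling), 6 around ZT12, led by Hspa8 (0.22, ZT13.97, limma adjusted p = 0.037), and in 5 without DRF ZT4 replicate 1, when Hspa8 no longer passed.

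**Figure D4:**
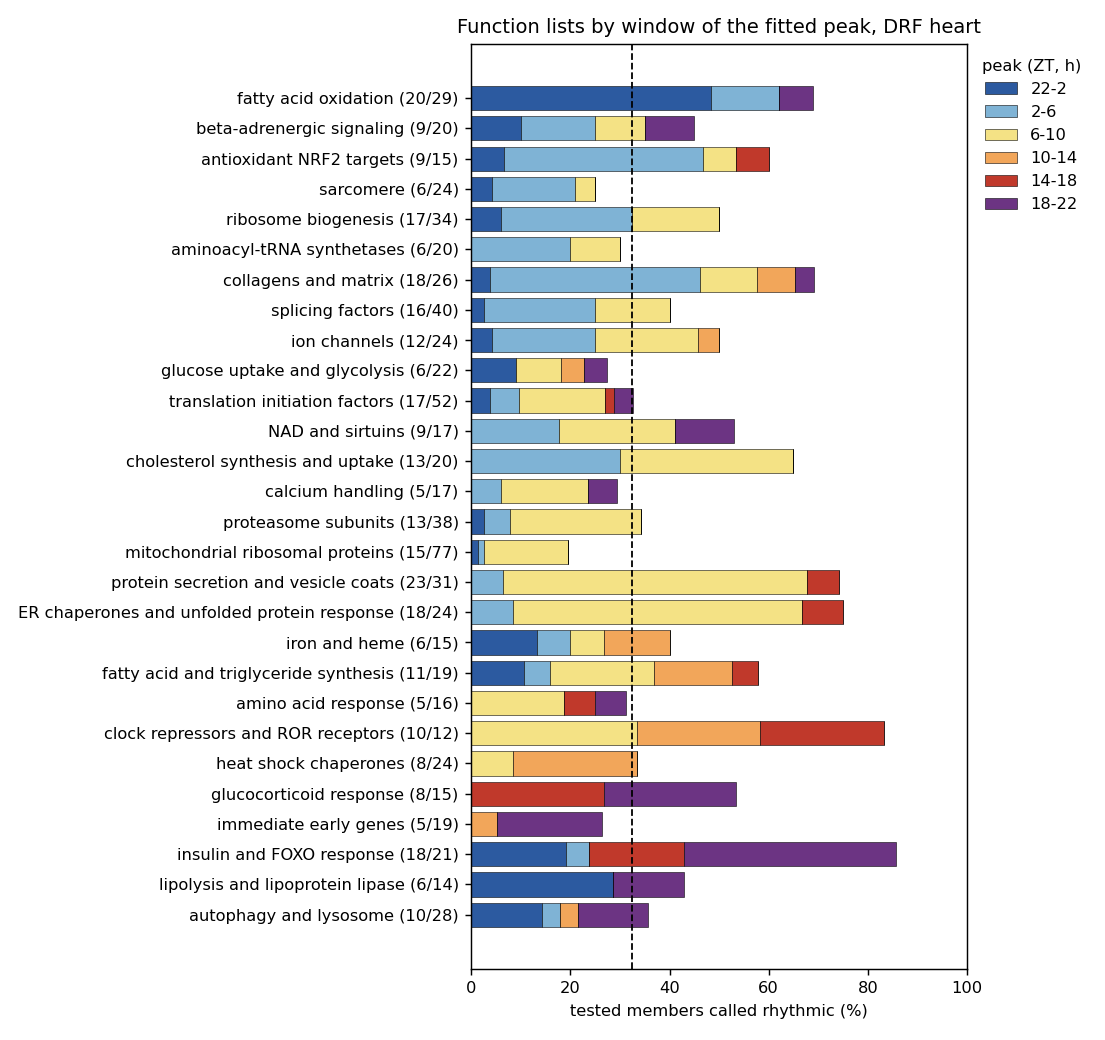
Share of the tested members of each function list that were called rhythmic in the DRF heart (x axis, %), for lists with at least 10 tested and 5 called members, stacked and coloured by the window of the fitted peak (ZT in h). The dashed line is the share of all tested genes, 32.4%. The lists were chosen with earlier results of these data known. Insulin and FOXO response (18 of 21) reaches farthest to the right, and ER chaperones and protein secretion are made mostly of the ZT6 to ZT10 colour.

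Lists of the respiratory chain, citric acid cycle, cytosolic ribosomal proteins and branched-chain amino acid catabolism had fewer calls than the 32.4% of all genes. Nuclear genes of the respiratory chain were called in 1 of 79 cases (1.27%) and cytosolic ribosomal proteins in 1 of 78 (1.28%). After median-of-ratios scaling the counts were 4 (5.06%) and 9 (11.5%), against 32.9%. Among the 7 time points 12 (15.2%) and 2 (2.56%) differed, against 31.5%. Of the 21 citric acid cycle genes limma called 0, with 1 at an unadjusted p under 0.05 and 0 by limma-voom on the recovered reads. Of the 13 mitochondrially encoded subunits limma called 0, with 0 at an unadjusted p under 0.05 and 0 by limma-voom. Branched-chain amino acid catabolism had 1 of 17 members called (5.88%). Glucose uptake and glycolysis had 6 of 22 called (27.3%) and glycogen genes 3 of 18 (16.7%), against 32.4%. After median-of-ratios scaling these counts were 13 (59.1%) and 7 (38.9%), above the 32.9% of all genes. Of each list 8 genes differed among the 7 time points (36.4% and 44.4%, against 31.5%). Pfkfb2, which makes the activator of phosphofructokinase in the heart, was the steepest glycolytic gene (0.50, ZT18.1, limma adjusted p = 3.8e-04).

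A second, 12 h wave beside the 24 h wave was called in 29 genes (0.209%), and this count rested on the library labelled DRF ZT4 replicate 1. Without it 524 genes were called, among them all 29. The genes of largest 12 h amplitude among the 29 were Snai3 (amplitude 0.50, limma adjusted p = 0.048), Tnfrsf12a (0.49, limma adjusted p = 0.048), Acat2 (0.29), Gramd1b (0.28) and Lonrf1 (0.25). Tnfrsf12a, the receptor of the cytokine TWEAK, stood at 46.2, 77.2, 83.3 and 78.1 TPM at ZT4, 36.04, 37.2, 24.6 and 29.9 TPM at ZT8, 36.2, 87.8, 71.98 and 46.5 TPM at ZT16 and 38.4, 74.3, 45.3 and 42.8 TPM at ZT20. Every ZT4 library and replicates 2 to 4 at ZT16 lay above every ZT8 library. Replicate 1 at ZT16 (36.2 TPM) lay below the highest ZT8 library (37.2 TPM). Without the doubted library, 12 of 24 endoplasmic reticulum genes and 8 of 40 splicing factor genes carried a 12 h component, against 3.78% of all tested genes. With it, limma called 0 of each, with 15 and 14 at an unadjusted p under 0.05 and 3 and 2 by limma-voom. Examples chosen after their values were seen were Manf (12 h amplitude 0.45, limma adjusted p = 0.0077, against 0.35 and 0.12 with the library), Ehhadh (0.47, limma adjusted p = 0.0012) and Ucp3 (0.89, limma adjusted p = 4.3e-04). Srsf5, a splicing factor gene, stood at 117, 85.02, 75.5 and 78.2 TPM at ZT0, 118, 47.4, 54.2 and 41.02 TPM at ZT4, 73.7, 70.4, 68.04 and 71.4 TPM at ZT8, 79.6, 59.9, 55.8 and 45.6 TPM at ZT12 and 79.4, 77.04, 88.6 and 81.5 TPM at ZT20. At ZT4, replicate 1 was more than 2 times each of the other 3 libraries, whose values lay below every ZT0, ZT8 and ZT20 library.

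**Figure D5:**
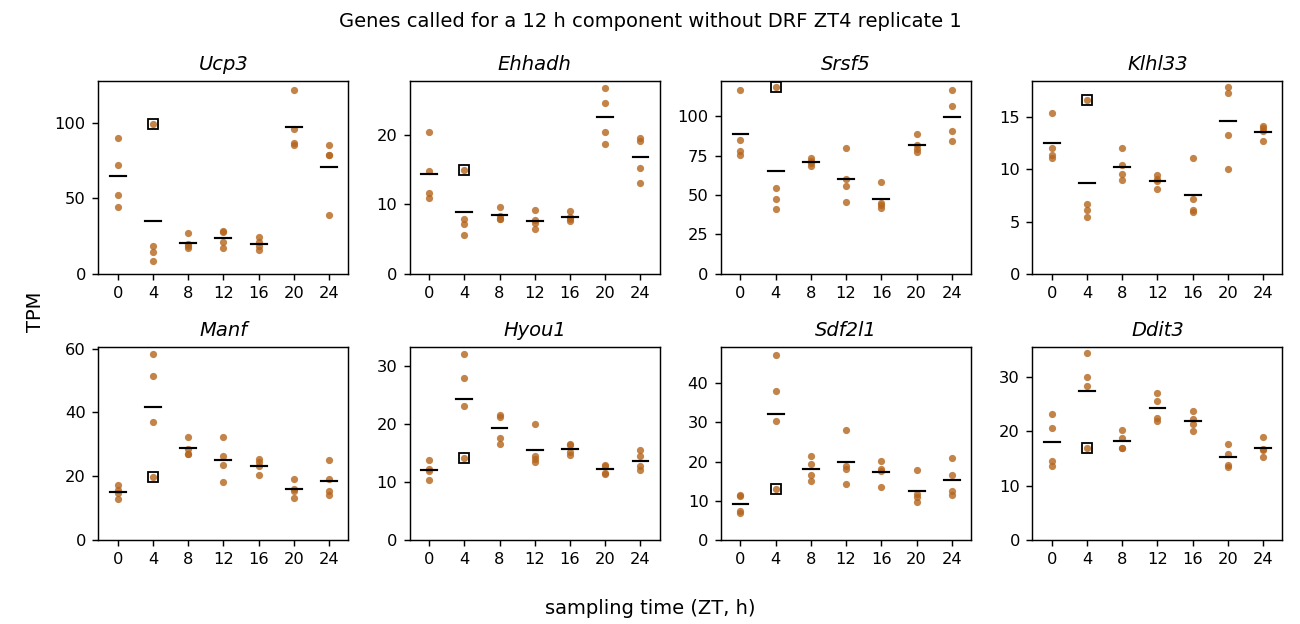
TPM (y axis, linear from 0) against sampling time (x axis, ZT in h) of 8 genes called for a 12 h component when the library labelled DRF ZT4 replicate 1 (open square) was left out. Points are the 28 DRF libraries and bars the mean of 4; for Ucp3 the square lies at 99.2 TPM against 8.58 to 18.2 TPM for the other 3 ZT4 libraries, and for Manf it lies below them.

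Set against the night-fed heart, rhythms differed for most fatty acid oxidation genes and for few matrix genes. NRF hearts had 5172 rhythmic genes (37.3%), and a difference in the 24 h wave between the regimens was called in 3830 genes (27.6%) by the limma F test of the interaction terms, or 4240 without both doubted libraries. Of the genes rhythmic under DRF, the share with such a difference was 72.0% in the ZT0 window, 38.8% in the ZT4 window, 51.2% in the ZT8 window, 52.5% in the ZT12 window, 36.4% in the ZT16 window and 61.2% in the ZT20 window. The genes of these windows and the 30 leading genes were chosen by their DRF wave, which also enters the difference test. Their shares are thus no test against the 27.6% of all genes. Of the 30 leading genes, 25 differed, of which 24 also did without both libraries. Gkn3 was then no longer called (limma adjusted p = 0.037, then 0.067), and Spon2 and Fmo2 were called in addition. By list, a difference was called for 19 of 29 fatty acid oxidation genes (22 without both libraries), 17 of 21 insulin and FOXO genes (17), 17 of 24 endoplasmic reticulum genes (17), 15 of 24 heat shock genes (18) and 2 of 26 matrix genes (2). The count was 7 of 22 for glucose uptake and glycolysis, 7 of 18 for glycogen and 4 of 17 for branched-chain amino acid catabolism. Under DRF and NRF the fitted peaks lay at ZT20.2 and ZT4.40 for Angptl4 and at ZT23.2 and ZT5.67 for Acot1. For Pfkfb2 the difference was called (limma adjusted p = 0.045) but not without both libraries (0.056), and its NRF wave did not pass. In the glucocorticoid list, where a difference was called for 9 of 15 genes, they lay at ZT16.1 and ZT13.9 for Zbtb16, ZT17.5 and ZT15.7 for Fkbp5, ZT20.4 and ZT14.1 for Mt1 and ZT20.9 and ZT12.8 for Mt2.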

How the data were processed

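PolyA RNA of 56 heart samples was sequenced by the authors, aligned with HISAT2 2.0.5 and counted with featureCounts 1.5.0-p3 on mm10, per the submitters' processing notes. The deposited values are named TPM but are another unit: each was a library constant times log2(1 + scaled reads) divided by exon length. The annotation, the strand setting and the log step are not given in the sources used here. Whole reads were recovered from the steps of these values with GENCODE M21 exon lengths (22864 genes listed; 22006 whole at the annotated length, 837 with a searched length, of which 802 lie on chromosomes 17 to 19, and 20 too abundant to test; Atp5a1 was left out), and 100% of 1279029 values came within 0.1 of a whole read. Genes with a value that was not whole had their length searched or were left out. The 100% was thus fixed by the procedure and does not test the searched lengths. Linear TPM was then computed. The tests were designed for TPM and kept as designed.

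Tests ran on the 13878 genes that averaged 1 TPM or more in all 56 libraries, on log2(TPM + 1), a scale that understates changes of low genes, with limma 3.58.1 in R 4.3.3 (eBayes with trend, Benjamini-Hochberg adjusted p under 0.05). A harmonic fit was used in place of the MetaCycle analysis of the study and treated ZT0 and ZT24 as the same phase. Standard errors of peak times came from the delta method. Named genes were the 5 protein-coding genes of largest amplitude per window that averaged 5 TPM or more, the 5 of largest 12 h amplitude, the clock lists and up to 4 called members per function list, plus members that did not pass. Members and lists were chosen with earlier results of these data known. Groups came from the labels, which do not say that replicates were separate animals, so p-values measure the spread between these samples. The library protocol names no molecular identifiers, so reads are not counted molecules. The methods were tested on simulated data. Alternatives were the scaling, the filter, the pseudocount, limma-voom, a replicate block, and leaving out a time point or a library.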

Additional observations from a re-analysis of the deposited data

Results flagged for a closer look

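In 266 groups of 4 libraries (the 30 leading genes, the 12 h genes and library measures at each ZT), 21 had a library far from the other 3 by Dixon's criterion, where chance flags about 1 in 20 groups. Libraries labelled DRF ZT4 stood out with Ucp3 at 99.2 TPM, Tnfrsf12a at 46.2 TPM and Angptl4 at 14.2 TPM in replicate 1, Ccl7 at 12.8 TPM in replicate 2 and Angptl7 at 4.99 TPM in replicate 4. At ZT0 Cldn5 reached 152 TPM in replicate 3. At ZT8 Dbp read 67.0 TPM and Pdk4 92.7 TPM in replicate 2, and Col3a1 37.6 TPM and Cyp1a1 123 TPM in replicate 3. At ZT16 replicate 1 had Dbp at 55.5 TPM, Zbtb16 at 58.3 TPM and Gramd1b at 8.42 TPM. At ZT20 Per2 read 4.93 TPM in replicate 1, Per3 2.96 TPM and Gramd1b 8.28 TPM in replicate 2, and the 10 most abundant genes took 26.9% of the reads in replicate 1. At ZT24 Dbp read 11.9 TPM and Ucp3 38.7 TPM in replicate 3, Ccl7 9.02 TPM in replicate 4 and Cdkn1a 24.9 TPM in replicate 1.

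The rhythm of 3830 genes differed between the regimens by the interaction test, among them 25 of the 30 leading genes, which were chosen by their DRF amplitude. As peak under DRF minus peak under NRF, in hours, the shifts were -2.08 for Col5a3, -6.44 for Acot1, -2.44 for Cldn5, -3.90 for Scd4, -1.89 for Fbn1, 3.34 for Klhdc8a and -4.88 for Cirbp. They were -2.14 for Dbp, -0.779 for Nr1d1, 6.18 for Fam78a, -8.15 for Cyp1a1, -1.50 for Per2, -2.07 for Per3, -2.55 for Gkn3 and 10.9 for Tfrc. The difference for Gkn3 was lost without both doubted libraries (limma adjusted p = 0.037, then 0.067). For Ccl12 (6.55) and Ccl7 (3.73) the NRF wave itself did not pass (amplitude 0.08 and 0.33), so that these hours rest on an NRF peak time that was not established. Later in the day they were 2.22 for Zbtb16, 1.86 for Fkbp5, -1.37 for Gsta3, -7.69 for Pdk4, -8.22 for Angptl4, -8.47 for Ucp3, -2.77 for Cdkn1a and 5.38 for Glul.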

How the results depend on the processing

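The count of 4496 rhythmic genes stayed within 1.5 times under the other scalings, filters and pseudocounts. An adjusted p under 0.01 gave 2435 rhythmic genes, windows of 442, 811, 708, 119, 111 and 244, 6 genes with a 12 h component, 2077 differing among time points, 3140 rhythmic under NRF and 2218 differing in rhythm. Median-of-ratios scaling gave 712 genes at ZT4, 584 at ZT12, 639 at ZT16, 964 at ZT20 and 105 with a 12 h component. The deposited values as given had 691, 761, 444 and 889 genes at ZT4, ZT8, ZT16 and ZT20 and 93 with a 12 h component. Limma-voom on the recovered reads had 431 genes at ZT12, 325 at ZT16 and 165 with a 12 h component. The 12 h count was 12 with a mean of at least 5 TPM, 57 in TPM without mitochondrially encoded genes, 7 without ZT0, 58 without ZT4, 3 without ZT8, 65 without ZT20 and 150 without ZT24. Without ZT12 there were 851 genes at ZT8, 138 at ZT12, 3317 under NRF and 2395 differing in rhythm. Without ZT16 there were 2580 rhythmic genes, 437 at ZT0, 505 at ZT4, 837 at ZT8 and 2868 differing among time points, and without ZT20 there were 802 at ZT8 and 279 at ZT20. The causes were not tested, beyond the fewer libraries in the last settings. Without DRF ZT4 replicate 1 and NRF ZT8 replicate 1 together, added after the data were seen, the 12 h count was 524.

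Leaving out 1 library at a time gave 3859 to 4891 rhythmic genes, 647 to 887, 1087 to 1842, 1035 to 1514, 204 to 354, 172 to 228 and 360 to 475 in the 6 windows, 3615 to 4855 differing among time points, 4657 to 5957 under NRF and 3421 to 4272 differing in rhythm. The 12 h count ran from 9 without DRF ZT8 replicate 2 to 524 without DRF ZT4 replicate 1. Of the 168 named genes with a 24 h call, 115 lost it in no setting and 53 in at least 1, and none of the 30 leading genes lost it. Same-numbered libraries had a median correlation of deviations of 0.04 (-0.27 to 0.57), against -0.0047 for the others. Since not every such correlation was above 0.1, the numbers were not taken to pair the libraries, although 16 of 28 correlated best with their own number, a hint from the data and not the design. With the replicate number as a block there were 4465 rhythmic genes, 79 with a 12 h component, 4610 differing among time points, 5079 rhythmic under NRF and 3780 differing in rhythm.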

Other observations

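Further gene groups were counted in the same way, and except for NAD metabolism and the 2 cold-inducible genes their shares in TPM were at or below the 32.4% of all tested genes or less than 1 point above it. After median-of-ratios scaling 8 of 19 immediate early genes (42.1%) and 6 of 12 Kruppel-like factor genes (50%) were called, against 32.9%, and 7 of 16 amino acid response genes (43.8%) differed among the 7 time points, against 31.5%. Of 19 tested immediate early genes 5 were called and 4 of these had fitted peaks around ZT20, although none had its highest mean TPM there, led by the nuclear receptor gene Nr4a1 (amplitude 0.58, ZT20.4, limma adjusted p = 0.013), while Fos, Jun and Egr1 did not pass. Of 12 Kruppel-like factor genes 4 were called, among them Klf11 (0.42, ZT19.01), Klf4 (0.38, ZT21.3) and Klf15 (0.33, ZT16). Klf15 lost its call in 10 of 45 alternatives and Klf4 in 1. The amino acid response list had 5 of 16 members called, with Cth (0.48, ZT17.3) and Chac1 (0.42, ZT18.3), both of glutathione and cysteine metabolism, in the night, although Chac1 (limma adjusted p = 0.047) lost its call in 25 of 44 alternatives, and Atf5 (0.26, ZT8.07) around ZT8. Of 17 genes of NAD metabolism and sirtuins 9 were called (52.9%), Nampt, the rate-limiting enzyme of NAD salvage, at ZT18.9 ± 0.38 h and Nnmt at ZT8.32 ± 0.84 h. PPAR receptors and coactivators had 4 of 16 members called, and these included the coactivator gene Ppargc1a (0.27, ZT17.2) and not Ppara, Ppard or Pparg. The proliferation list had 3 of 18, with the cyclin genes Ccnd1 (0.48, ZT8.87) and Ccnd2 (0.23, ZT8.71) around ZT8, and the endothelial hemostasis list 3 of 11. The cold-inducible genes Cirbp and Rbm3 (0.31, ZT6.28) were both called, with their highest mean TPM at ZT0, and Rbm3 lost its call in 6 of 45 alternatives.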
